A study of Mus musculus with 12 samples.

Results

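Olfactory and vomeronasal receptors are genes whose transcripts are known from sensory neurons of the nose and are not expected in embryonic cortex, and their probes were examined here as a set of controls on a comparison of rostral with caudal neocortex. Every probe of the array whose symbol in the platform annotation starts with Olfr, Vmn1r, Vmn2r, V1r or V2r was taken, which gave 190 of 21998 probes. They comprised 145 probes of olfactory receptors, 29 of vomeronasal type 1 receptors and 16 of vomeronasal type 2 receptors. Of these probes, 185 carried 1 symbol and stood for 178 genes, and the other 5 carried several symbols and are counted without a name. The array named 15063 genes in all, and the comparison set was the 16813 other probes with a gene symbol. Neocortex of C57 embryos (the inbred strain C57Bl\6) and of MF1 embryos (an outbred strain) was dissected at E13.5 (days of embryonic development), and the labels name no treatment or mutation in either strain. Each strain gave 3 pools, each of 3 embryos per the labels and of a single litter per the design text, and RNA of the rostral end was hybridised against RNA of the caudal end of the same pool on 2 arrays with Cy3 and Cy5 exchanged. The deposited values were log2 ratios between the dyes, so they hold no level of any transcript, and p-values measure the spread between pools, which may be technical in part. Which channel stood on top of the ratio was not named, and Cy5 over Cy3 was assumed, so the stated direction is a likely one, and the sign of every such ratio would turn if it were the other way round.

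Olfactory receptors are G protein-coupled receptors that bind odorants on the cilia of olfactory sensory neurons, each of which expresses a single receptor gene from a single allele. Vomeronasal receptors of both types detect pheromones and other social cues in neurons of the vomeronasal organ, type 1 beside the G protein subunit encoded by Gnai2 and type 2 beside that encoded by Gnao1. The receptor genes lie in clusters on many chromosomes, have coding sequences without introns in the olfactory and vomeronasal type 1 families, and stand silent in most other tissues.

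The RefSeq gene table for GRCm38.p6 held the Entrez identifier of 183 of the receptor probes, and its entries were 171 protein-coding genes and 5 pseudogenes. RefSeq promoters, here windows from 250 bases before to 50 bases after a gene model's start, were found for 142 of the 178 genes, in 144 promoters. The olfactory receptor models had a median length of 954 bases. A model may begin at the coding sequence and not at the transcript's start, and its window is then not a true promoter. In Olfr9 the 50 bases after the start open with atg. How many models begin so was not tested. They were poorer in G and C than the promoters of the whole table, with a median GC content of 37.7% against 52.7% over 32851 promoters. The letters TAATTA, a core that homeodomain proteins such as Lhx2 bind in olfactory receptor promoters, occurred in 21 of the 144 promoters (14.6%), in 16.6% of the 1274 receptor promoters of the table and in 5.29% of all promoters. The letters TCCC and GGGA with any 2 bases between them, a form of the site of the Ebf proteins, occurred in 0 of the 144 and in 0.904% of all promoters. Both motifs read alike on the 2 strands, they do not overlap each other, and a match of letters is a description and not a site. TAATTA holds only A and T, and the other motif's fixed letters are mostly G and C. The shares were not compared with promoters of like GC content, so the part of base content in them was not tested. Below, Olfr9 stands for the receptors with a dye effect and Olfr12 for those with a low rostral over caudal ratio in C57, and Olfr156 and Olfr20 are shown because they are the 2 of 14 named receptors with a promoter in the table that hold TAATTA, which is in capitals. The regions are chr10:128989664-128989963 on the plus strand for Olfr9, chr1:92619631-92619930 on the plus strand for Olfr12, chr4:43821384-43821683 on the minus strand for Olfr156 and chr11:73350609-73350908 on the plus strand for Olfr20. They are positions of the genes in RefSeq and not of the array's probes, for which no build was named.
Olfr9: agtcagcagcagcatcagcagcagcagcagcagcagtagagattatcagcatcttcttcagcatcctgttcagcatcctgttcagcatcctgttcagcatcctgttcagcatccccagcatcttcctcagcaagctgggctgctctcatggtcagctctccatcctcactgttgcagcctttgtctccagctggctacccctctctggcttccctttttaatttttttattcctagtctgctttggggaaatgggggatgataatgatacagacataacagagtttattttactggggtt
Olfr12: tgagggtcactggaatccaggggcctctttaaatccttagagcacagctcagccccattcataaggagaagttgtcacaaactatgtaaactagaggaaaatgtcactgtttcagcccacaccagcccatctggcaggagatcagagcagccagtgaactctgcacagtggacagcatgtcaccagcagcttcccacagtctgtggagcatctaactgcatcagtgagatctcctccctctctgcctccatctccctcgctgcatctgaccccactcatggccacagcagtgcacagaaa
Olfr156: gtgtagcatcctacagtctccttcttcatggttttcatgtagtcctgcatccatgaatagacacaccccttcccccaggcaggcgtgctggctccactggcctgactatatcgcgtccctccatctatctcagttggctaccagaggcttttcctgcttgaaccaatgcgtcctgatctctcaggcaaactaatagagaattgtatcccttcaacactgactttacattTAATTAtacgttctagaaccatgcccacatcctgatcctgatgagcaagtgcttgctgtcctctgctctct
Olfr20: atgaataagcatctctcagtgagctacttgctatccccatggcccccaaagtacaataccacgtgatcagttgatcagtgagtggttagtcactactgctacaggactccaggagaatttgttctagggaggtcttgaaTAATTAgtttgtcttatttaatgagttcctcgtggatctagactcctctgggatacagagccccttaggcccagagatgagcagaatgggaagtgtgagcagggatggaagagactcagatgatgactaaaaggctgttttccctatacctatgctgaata

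Receptor probes lacked a value more often than other genes on every array, and by far more often in C57. On the 6 C57 arrays 32.6% ± 3.80 of the receptor probes had no usable ratio, against 13.3% ± 2.36 of the other named probes (SD, n = 6 arrays of 3 pools). On the 6 MF1 arrays the shares were 10.5% ± 4.42 for the receptors and 6.76% ± 2.51 for the other named probes (SD, n = 6 arrays of 3 pools). The receptors' share was the higher of the pair on 6 of 6 arrays in each strain, by 19.4 percentage points on average in C57 and by 3.77 in MF1. It lay between 27.9% and 36.8% in C57 and between 5.26% and 17.4% in MF1, so the strains did not overlap. Nor did they overlap for the other named probes, at 10.9% to 17.0% in C57 and 3.94% to 10.2% in MF1. Each array held 1 strain, and strain and array set cannot be told apart.

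**Figure D1:**
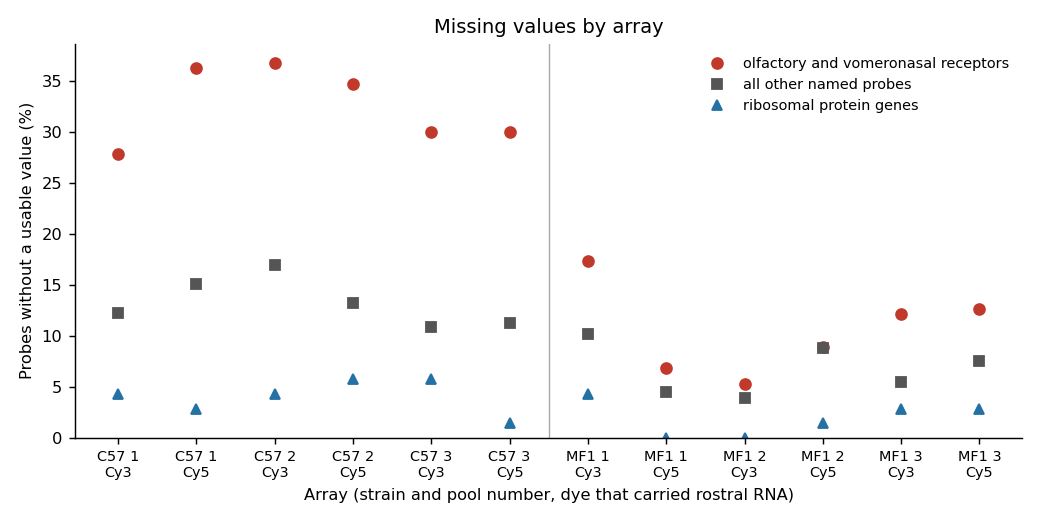
Share of probes without a usable value (percent, vertical axis) on each of the 12 arrays (horizontal axis, C57 left and MF1 right, with pool number and the dye that carried rostral RNA), for receptor probes (circles), all other named probes (squares) and ribosomal protein genes (triangles). The receptor points lie above the other named probes on every array, at 27.9% to 36.8% in C57 and 5.26% to 17.4% in MF1, and nearly touch them on the MF1 pool 2 array with rostral RNA in Cy5.

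Counted over arrays instead of probes, only 35 receptor probes (18.4%) had a value on all 12 arrays, against 9359 of the other named probes (55.7%). A value was missing on 4 or more arrays for 63 receptor probes (33.2%), against 12.7% of the other named probes. More C57 than MF1 arrays lacked a value for 122 receptor probes (64.2%), more MF1 than C57 arrays for 14 (7.37%), and the number was equal for 54. Among the other named probes these first 2 shares were 27.1% and 14.5%. A ratio at the ceiling of the deposited scale, 16.61, which was treated as missing, stood in 0.658% of the probe and array pairs of receptors and in 0.233% of those of the other named probes. Other genes restricted to tissues outside the brain, such as protamines, caseins, defensins and lens crystallins, were missing at 22.2% in C57 and 10.4% in MF1. Other chemosensory receptors, such as taste receptors (11 probes), were missing at 16.7% in C57 and 6.06% in MF1. Ribosomal protein genes, which every cell transcribes strongly, were missing at 4.05% and 1.90%, and markers of embryonic cortex, such as the progenitor genes Pax6 and Emx2, at 0% and 0.877%.

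Where a receptor did have a ratio, it lay far from 0 in C57 and less so in MF1. The spread of the ratios over receptor probes, given as an SD from the median absolute deviation, was 1.55 ± 0.18 log2 units on the C57 arrays, against 0.68 ± 0.08 for the other named probes (mean ± SD over 6 arrays of 3 pools). On the MF1 arrays it was 0.55 ± 0.17 for the receptors, against 0.47 ± 0.08 for the other named probes. The receptors were the wider set on 6 of 6 C57 arrays and on 4 of 6 MF1 arrays, by mean factors of 2.30 and 1.17. A dye ratio of over 2-fold in either direction (1 log2 unit) was read for 58.6% of the receptor values and 23.5% of the other values in C57, and for 21.8% and 12.9% in MF1. Ribosomal protein genes spread by 0.25 in C57 and 0.23 in MF1, and the other tissue-restricted genes by 0.98 and 0.50. The other chemosensory receptors spread by 0.93 in C57 and 0.35 in MF1.

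**Figure D2:**
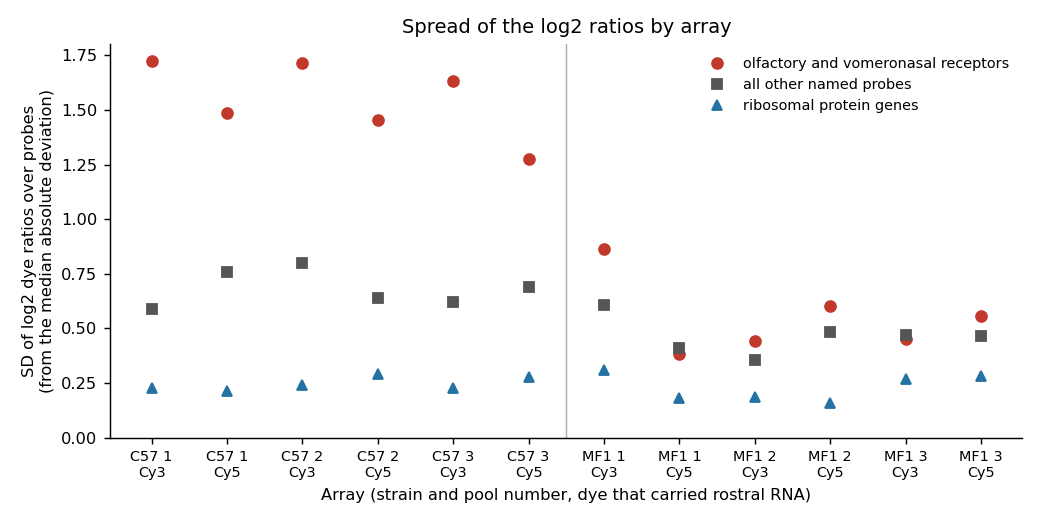
SD of the log2 dye ratios over probes, from the median absolute deviation (vertical axis, log2 units), on each of the 12 arrays (horizontal axis, C57 left and MF1 right), for receptor probes (circles), all other named probes (squares) and ribosomal protein genes (triangles). The receptors sit between 1.27 and 1.72 on the C57 arrays and between 0.38 and 0.87 on the MF1 arrays, where they lie close to the other named probes.

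The width went along with the gaps only in part. Among probes with a value on all 12 arrays, the receptors spread by 1.16 in C57, against 0.52 for the other named probes, while in MF1 the values were 0.37 and 0.40. With 1 or 2 arrays missing, the spread in C57 was 1.70 for 65 receptors and 1.05 for 4025 other probes, and in MF1 it was 0.56 and 0.57. With 3 or more missing, it was 1.68 for 90 receptors and 1.50 for 3429 other probes in C57, and 0.78 and 0.69 in MF1. The C57 excess over the other genes was therefore present at each number of missing values, and the MF1 excess appeared only among the probes with the most gaps.

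Some deposited ratios matched quotients of small whole numbers, and the share that matches by coincidence was not measured. A value within 0.0006 log2 units of the ratio of 2 whole numbers, each from 1 to 10, made up 8.40% ± 3.09 of the receptor values in C57, against 4.46% ± 0.47 of the other named values (SD, n = 6 arrays of 3 pools). In MF1 it made up 9.01% ± 5.91 of the receptor values and 6.35% ± 1.60 of the other values (SD, n = 6 arrays of 3 pools). The receptors' share was the higher on 5 of 6 C57 arrays and 4 of 6 MF1 arrays. It was 1.99% in C57 and 2.64% in MF1 among ribosomal protein genes. No spot intensities were used here, so the part of dim spots in these shares was not tested.

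The dye effect of a probe is the mean of both arrays of a pool in the deposited direction, each array centred on its median. In this mean a difference between rostral and caudal RNA cancels. In C57 the receptors lay well below 0 in every pool, with medians of -1.16, -0.56 and -0.52 in pools 1, 2 and 3, whereas the other named probes had 0.09, 0.08 and 0.07. In MF1 the receptor medians were 0.09, 0.10 and 0.03, and those of the other named probes -0.01, -0.04 and -0.01. The spread of the dye effect over receptors was 1.51, 1.44 and 1.18 in the C57 pools and 0.51, 0.43 and 0.36 in the MF1 pools, against 0.46, 0.49 and 0.45 and then 0.32, 0.28 and 0.23 for the other named probes. Of the receptors with both arrays, 77.8%, 68.3% and 66.3% were below 0 in C57 pools 1, 2 and 3, against 41.3%, 43.1% and 44.7% of the other named probes. In the MF1 pools 41.9%, 39.0% and 45.7% of the receptors were below 0, against 51.3%, 55.4% and 52.7%. These values cover 99, 82 and 98 receptor probes in the C57 pools and 148, 164 and 151 in the MF1 pools, since a pool needed a value on both arrays. Under the assumed Cy5 over Cy3, a value below 0 stands for the higher reading in Cy3.

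**Figure D3:**
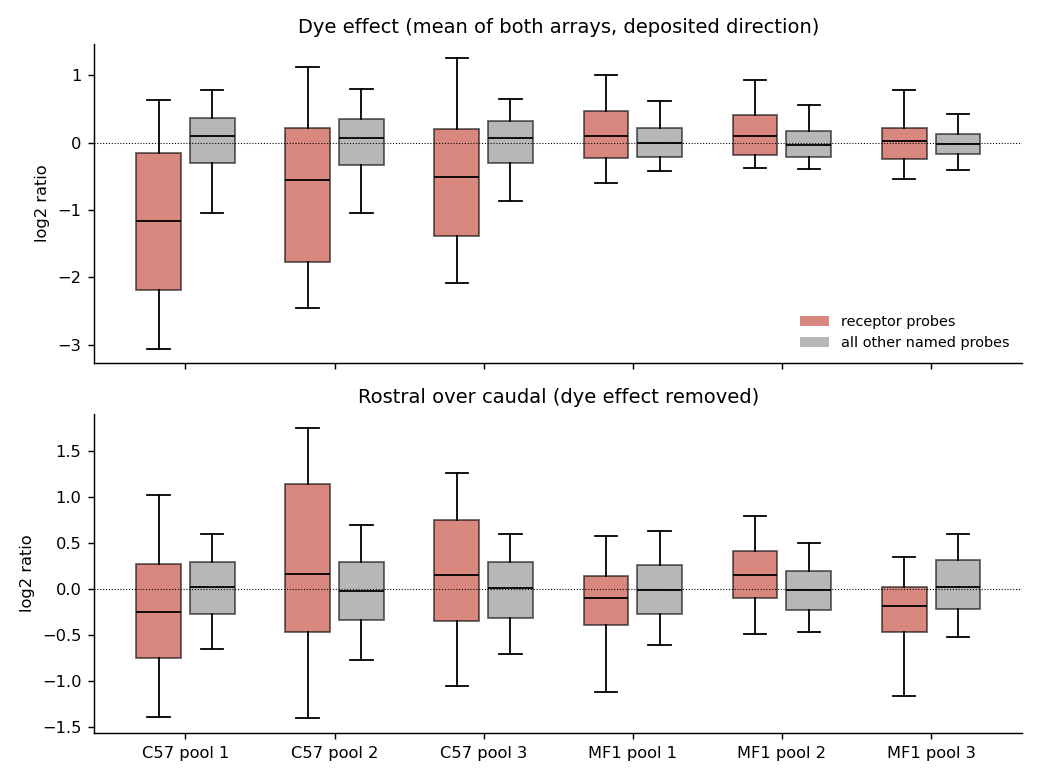
Box plots by pool (horizontal axis, C57 left and MF1 right) of the dye effect (upper panel) and of rostral over caudal (lower panel), both in log2 units, for receptor probes (red) and all other named probes (grey). Boxes span the quartiles with the median as a line and whiskers run from the 10th to the 90th percentile; the receptor medians of the dye effect are -1.16, -0.56 and -0.52 in C57, whereas in the lower panel the receptor medians lie between -0.24 and 0.17 in all 6 pools.

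In the dye effect, C57 pools ranked the receptors more alike than MF1 pools did. Across 51 to 64 receptor probes with values in both, Spearman correlations between C57 pools were 0.46 to 0.64, and across 127 to 139 probes those between MF1 pools were 0.16 to 0.32. The other named probes gave 0.43 to 0.52 in C57 and 0.12 to 0.34 in MF1. Between a C57 and an MF1 pool the receptors gave -0.21 to 0.21. For rostral over caudal the receptors gave -0.15 to 0.22 between C57 pools and -0.01 to 0.16 between MF1 pools. These are descriptions across probes, which are not independent replicates, and pools of a strain share a set of arrays.

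For tests per gene, probes of the same symbol were averaged and a gene entered the fit with at least 2 complete pools in each strain. Of 183 receptor entries (178 genes and 5 unnamed probes), 77 passed (42.1%), against 76.5% of the other named entries, and 78 failed in C57 alone, 9 in MF1 alone and 19 in both. The counts below speak of these 77, which are the receptors with the fewer gaps. The fit held 14418 features, a feature being a gene or an unnamed probe.

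The dye effect passed an adjusted p of 0.05 in C57 for 28 of the 77 receptors (36.4%), against 9.51% of all 14418 features. Of these, 23 were below 0, against 5.53% of all features, and 5 above 0, against 3.97%. This contrast by strain was chosen after the data were seen. The median dye effect in C57 was -0.72 over the receptors and 0.07 over all features. Below 0 were 59 of the 77 receptors, against 6298 of all 14418 features. In MF1, 0 of the 77 receptors and 0 of all features (0%) passed, and 7 receptors (9.09%) and 8.25% of all features had an unadjusted p under 0.05. Over both strains with equal weight 6 receptors passed, against 1.75% of all features, and 5 of them were below 0, against 1.38%. The count in C57 rests on a spread shared with MF1 and on single pools. Without C57 pool 1, 1 of 45 receptors passed, beside 171 of 12740 features. Without C57 pool 2, 11 of 60 receptors passed, 9 of them among the 28, beside 360 of 13268 features. Without C57 pool 3, 17 of 48 receptors passed, 12 of them among the 28, beside 1021 of 12618 features. Without MF1 pool 1, 2 or 3, 7 of 68, 7 of 67 and 7 of 68 receptors passed, all among the 28, beside 331 of 13110, 322 of 13194 and 393 of 12960 features. With each strain fitted on its own spread 0 receptors and 0 features passed, and with arrays scaled to equal spread 8 receptors did. Over both strains the number of receptors that passed was 6 without C57 pool 3 and 0 without any other pool.

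Olfr9 had the smallest p of the dye effect below 0. Its dye effect was -2.54 and -2.75 in C57 pools 1 and 2, with no complete pool 3, and 0.25, -0.28 and -0.26 in MF1. Every C57 pool with a value lay more than 2 log2 units below every MF1 pool. Over both strains the effect was -1.37 ± 0.12 (SE, limma adjusted p = 0.0324), and it was -2.65 ± 0.18 in C57 (adjusted p = 0.0119). The difference of C57 minus MF1 was -2.55 ± 0.24 (adjusted p = 0.0494).

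Olfr71 and Olfr586 were the next below 0. Olfr71 read -2.08 and -1.58 in C57 pools 1 and 2, against 0.05, -0.12 and 0.07 in the MF1 pools, a C57 effect of -1.83 ± 0.17 (SE, adjusted p = 0.0146). Olfr586 read -1.19 and -1.82 in C57 pools 1 and 3, against -0.40, -0.39 and -0.54 in MF1, and was thus below 0 in every pool with a value. Its C57 effect was -1.51 ± 0.19 (SE, adjusted p = 0.0222), and over both strains it was -0.98 ± 0.12 (adjusted p = 0.0435). For all 3 receptors the MF1 pools were the closer to 0.

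Above 0, Olfr48 stood out in C57. Centred on the array median, its ratios with rostral RNA in Cy3 were 0.15 and 1.80 in C57 pools 1 and 3. With rostral RNA in Cy5 they were 4.70, 0.96 and 5.27 in C57 pools 1, 2 and 3. All 6 MF1 ratios lay between -0.16 and 0.14. The dye effect was 2.42 and 3.54 in C57 pools 1 and 3, against -0.07, 0.04 and 0.05 in MF1, which gave 2.98 ± 0.28 in C57 (SE, adjusted p = 0.015). Olfr75-ps1, marked as a pseudogene by its symbol, read 2.12 and 1.27 in C57 and 0.30, 0.80 and 0.83 in MF1. It passed in C57 (1.70 ± 0.26 SE, adjusted p = 0.0328) and not over both strains (1.17 ± 0.17 SE, adjusted p = 0.0557). Olfr480 read 0.87, 1.44 and 0.76 in C57 and -0.04, -0.002 and 0.13 in MF1, and it passed in C57 (1.02 ± 0.15 SE, adjusted p = 0.0227) and not over both strains (adjusted p = 0.0798).

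Olfr149 had dye effects of opposite sign in the strains. It read -2.42, -1.85 and -1.70 in the C57 pools and 2.16, 1.31 and 3.0 in the MF1 pools. C57 minus MF1 was -4.15 ± 0.46 (SE, adjusted p = 0.0494). With Olfr9 it was 1 of 2 receptors among the 77 whose dye effect differed between the strains at this threshold, against 0.312% of all features. Its C57 effect was -1.99 ± 0.32 (SE, adjusted p = 0.0272) and its MF1 effect 2.16 ± 0.32 (adjusted p = 0.387). The number of receptors that passed in this contrast was 6 without C57 pool 3 and 0 without any other pool.

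**Figure D4:**
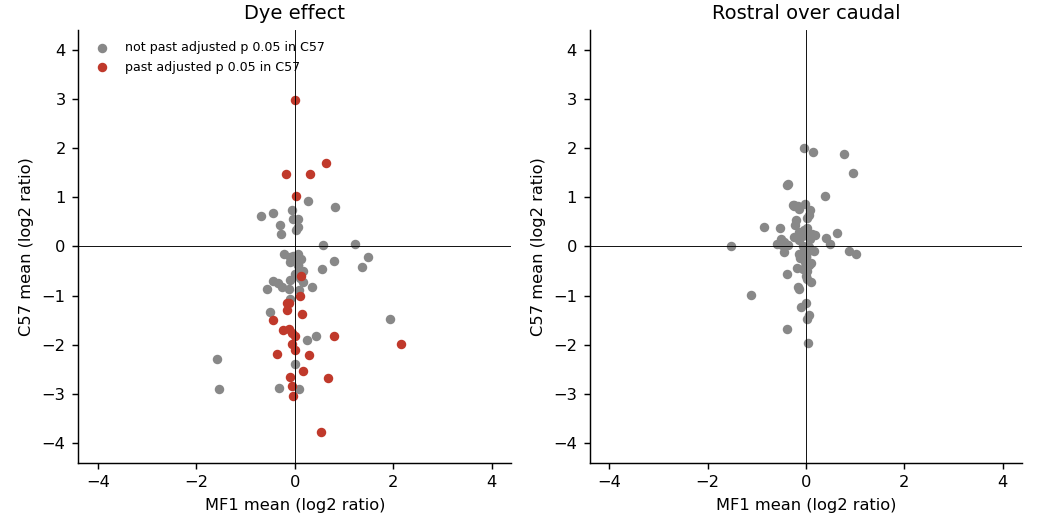
Each point is 1 of the 77 receptor entries in the fit, with its mean over C57 pools (vertical axis) against its mean over MF1 pools (horizontal axis), in log2 units, for the dye effect (left) and for rostral over caudal (right). Red points are the 28 past an adjusted p of 0.05 for the C57 dye effect; in both panels the points spread along the C57 axis, and on the left 59 of 77 lie below 0 in C57.

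With the dye effect removed, no receptor passed the test of rostral against caudal cortex. Rostral over caudal passed an adjusted p of 0.05 for 0 of the 77 receptors over both strains, in C57, in MF1 and in the strain difference, and for 0% of all 14418 features in each of these limma tests. The smallest adjusted p of a receptor was 0.295 over both strains, 0.177 in C57, 0.742 in MF1 and 0.532 for the strain difference. The receptor median was -0.03 log2 units over both strains, 0.03 in C57 and -0.03 in MF1, against 0.01, 0.004 and 0.01 over all features. Of the receptors, 34 were above 0 and 43 below over both strains. By pool the receptor medians were -0.24, 0.17 and 0.16 in C57 and -0.09, 0.16 and -0.18 in MF1, so both signs occurred in each strain. Read in a single orientation, with the dye effect left in, the C57 receptor median was 0.70 from the arrays with rostral RNA in Cy3 and -0.72 from those with rostral RNA in Cy5.

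The receptors nonetheless reached large ratios in C57. At an unadjusted p under 0.05 there were 16 of 77 in C57 (20.8%), against 9.71% of all features. Of these 11 were above 0, against 4.23%, and 5 below, against 5.48%. The same count was 2 in MF1 (2.60%), against 4.36%, then 9 over both strains (11.7%), against 8.98%, and 10 in the strain difference (13.0%), against 6.1%. A fitted log2 ratio over 1 in size was seen for 13 receptors in C57 (16.9%), against 4.54% of all features, and for 3 in MF1 (3.90%), against 2.33%. Over both strains 5 receptors (6.49%) passed this size, against 1.05% of all features. The SD of a receptor over the pools of its strain had a median of 0.78 in C57 and 0.33 in MF1, against 0.33 and 0.31 over all features. Of the 16 receptors at an unadjusted p under 0.05 in C57, 6 had also passed for the C57 dye effect. That count of 16 became 9 of 60 without C57 pool 2 and 6 of 48 without C57 pool 3. The 10 of the strain difference became 3 of 48 without C57 pool 3 and 5 of 68 without MF1 pool 3. The 9 over both strains became 5 of 48 without C57 pool 3. The 2 in MF1 became 1 of 45 without C57 pool 1, 1 of 60 without C57 pool 2 and 3 of 67 without MF1 pool 2. Fewer receptors entered each of these fits than the 77. The share of all features at this threshold was not taken in them, so the counts alone do not show that an effect faded.

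The same sign in every pool was not more common among the receptors than among all features. The receptors counted here are few, no difference was tested, and the lower shares are not read as a trait of the receptors. Of 36 receptors with all 6 pools complete, 0 had the same sign in 6 of 6 pools, against 5.97% of all features. In C57, 9 of 38 receptors (23.7%) had the same sign in 3 of 3 pools, against 33.1%, and in MF1 12 of 63 (19.0%) did, against 21%.

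Above 0 over both strains, Olfr48 had the smallest p. Its rostral over caudal ratio was 2.27 and 1.73 log2 units in C57 pools 1 and 3, against -0.08, 0.07 and -0.09 in the MF1 pools. The C57 mean was 2.0 ± 0.22 (SE, adjusted p = 0.177) while that over both strains was 0.98 ± 0.14 (adjusted p = 0.295). C57 minus MF1 was 2.04 ± 0.28 (SE, adjusted p = 0.532). This is the receptor with the largest positive dye effect in C57, and on C57 arrays with rostral RNA in Cy3 alone its ratio was -0.98.

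Vmn1r10, a vomeronasal type 1 receptor, was above 0 in each of 4 pools with a value. It read 2.59 and 1.16 in C57 pools 1 and 3 and 1.18 and 0.38 in MF1 pools 2 and 3, or 1.32 ± 0.30 over both strains (SE, adjusted p = 0.454). Its dye effect was below 0 in the same 4 pools, from -3.44 to -1.13. Olfr74 read 2.43 and 1.39 in C57 pools 2 and 3, against -0.49 and 0.76 in MF1 pools 1 and 3, and its value over both strains was 1.02 ± 0.30 (SE, adjusted p = 0.484). Its MF1 pools had both signs.

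Olfr9 read 0.28 and 1.75 in C57 pools 1 and 2 and 0.36, 0.46 and 0.35 in MF1, above 0 in 5 of 5 pools with a value. Over both strains this was 0.71 ± 0.23 (SE, adjusted p = 0.504). Olfr397 read 1.05 and 0.43 in C57, against 0.01, 0.32 and -0.09 in MF1 (0.41 ± 0.16 SE over both strains, adjusted p = 0.538). Vmn2r89, a vomeronasal type 2 receptor, read 1.10 and 0.60 in C57 pools 2 and 3, against -0.40, -0.22 and -0.16 in MF1. Its 2 probes did not match, however. In MF1 pool 1 one probe read -2.44 and the other 1.63, and in C57 pool 3 they read -0.02 and 1.21.

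Below 0, Olfr57 had a value on all 12 arrays and the smallest p. It read -0.82, -2.14 and -2.09 in the C57 pools, against -0.82, 0.08 and -0.43 in MF1, and C57 pool 1 and MF1 pool 1 were level. The C57 mean was -1.68 ± 0.31 (SE, adjusted p = 0.221), and over both strains it was -1.04 ± 0.22 (adjusted p = 0.353). The ratios, centred on the array median, show which arrays carried this. With rostral RNA in Cy3 they were 1.73, 3.62 and 4.15 in C57 and 1.68, -0.32 and 0.73 in MF1, while with rostral RNA in Cy5 they were 0.08, -0.67 and -0.02 in C57 and 0.04, -0.16 and -0.12 in MF1. In the 3 C57 pools and MF1 pool 1 the array with rostral RNA in Cy3 was over 1 log2 unit from 0 and the other was nearer to it, and Olfr57 also passed for the C57 dye effect (1.48 ± 0.28 SE, adjusted p = 0.0368).

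Olfr12 read -1.44 and -1.02 in C57 pools 1 and 3, against -0.13, 0.16 and -0.32 in MF1 (over both strains -0.66 ± 0.15 SE, adjusted p = 0.414). Its dye effect had both signs in C57, at -1.09 and 1.87. Olfr749 was below 0 in all 5 pools with a value, at -0.83 and -1.13 in C57 and -0.43, -2.80 and -0.13 in MF1 (-1.05 ± 0.41 SE, adjusted p = 0.543). The low MF1 mean came mostly from pool 2. Vmn1r44 read 0.003, -1.54 and -0.94 in C57 and -0.36, -0.37 and 0.27 in MF1 (-0.49 ± 0.21 SE, adjusted p = 0.568), with both signs in each strain.

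Olfr156 read -0.39, -2.56 and -0.49 in C57, against 0.25, 0.07 and -0.29 in MF1 (-0.57 ± 0.29 SE over both strains, adjusted p = 0.606). C57 pool 2 stood apart from the other 5 pools. Its dye effect in that pool was -2.87, against 0.27 and 0.15 in the other C57 pools. Olfr480, named above for its dye effect, likewise read -4.66 in C57 pool 2 and between -0.22 and 0.47 in the other 5 pools.

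**Figure D5:**
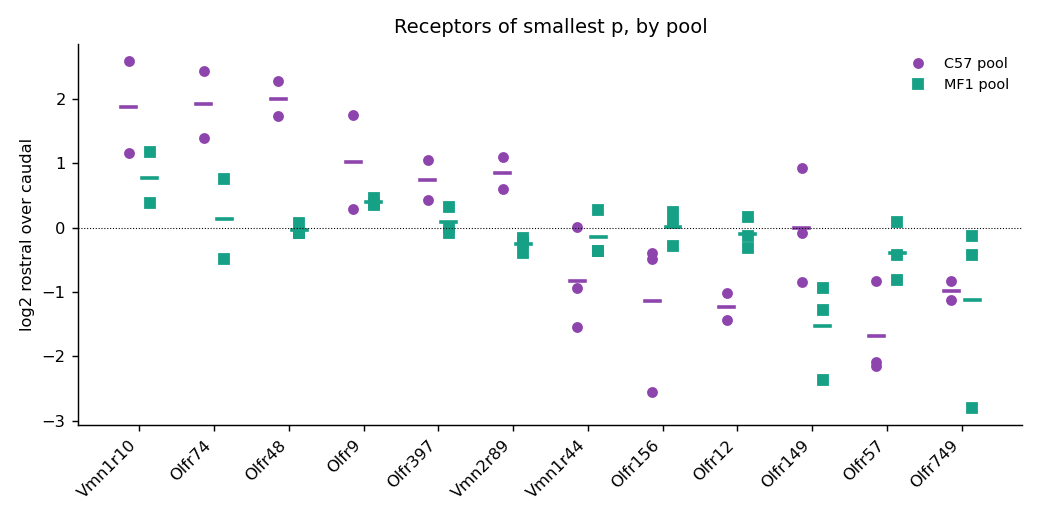
Rostral over caudal (vertical axis, log2 units) in each pool for the 6 receptors per side of smallest p over both strains, with C57 pools as circles and MF1 pools as squares and horizontal bars at the strain means. The 2 C57 pools of Olfr48, at 2.27 and 1.73, lie far above its MF1 pools, at -0.09 to 0.07, whereas the lowest point is MF1 pool 2 of Olfr749, at -2.80.

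In MF1 alone, Olfr149 had the smallest p, with -0.84, -0.09 and 0.93 in the C57 pools and -1.28, -0.94 and -2.37 in the MF1 pools. The MF1 mean was -1.53 ± 0.39 (SE, adjusted p = 0.742), and without 1 MF1 pool it ran from -1.82 to -1.11. With rostral RNA in Cy3 its centred ratios in MF1 were 3.43, 2.26 and 5.37, and with rostral RNA in Cy5 they were 0.88, 0.37 and 0.63. Here too the arrays of 1 orientation were far from 0, and on the Cy5 arrays alone the MF1 mean had the opposite sign (0.63). Vmn1r53 read -0.27 and 1.04 in C57 and -0.30, -1.40 and -0.87 in MF1 (MF1 mean -0.86 ± 0.33 SE, adjusted p = 0.9995). Olfr586 read -0.69 and 1.01 in C57 and -0.33, -0.58 and -0.61 in MF1.

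Above 0 in MF1, Olfr29-ps1 read -0.34 and 0.43 in C57 and 0.73, 0.53 and 0.23 in the MF1 pools. Olfr16, complete on all 12 arrays, read 0.47, -0.18 and 0.25 in C57 and 0.08, 0.36 and 0.78 in MF1. V1rb10 read -0.75 and 0.56 in C57 and 1.80 and -0.04 in MF1. None of these 3 passed, each at an adjusted p of 0.9995 in MF1.

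For the strain difference the receptors of smallest p were Olfr48, Vmn2r89 and Olfr30 with C57 the higher and Olfr12, Olfr57 and Olfr20 with C57 the lower. Olfr30 read 1.80 and 0.75 in C57 pools 1 and 2, against -1.07, -0.04 and 0.01 in MF1, and C57 minus MF1 was 1.64 ± 0.49 (SE, adjusted p = 0.752). Olfr20 read -0.31 and -1.14 in C57 pools 1 and 3, against 0.09, 0.27 and -0.03 in MF1 (-0.83 ± 0.34 SE, adjusted p = 0.817). The pools of both did not overlap between the strains, which follows in part from their choice by this difference and is no further support. A strain difference over 1 log2 unit in size was fitted for 17 receptors (22.1%), against 7.26% of all features.

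By family, the dye effect in C57 passed for 21 of 57 olfactory genes, with a median of -0.74, and for 6 of 18 vomeronasal genes, with a median of -0.55. It passed for 9.51% of all features. Below 0 were 45 of the 57 and 13 of the 18, against 6298 of all 14418 features. Type 1 probes had median dye effects of -1.12, 0.09 and -0.695 in C57 pools 1, 2 and 3, with 15 probes in each. Type 2 probes had -0.99, -2.04 and -0.75, with 6, 11 and 10 probes. Rostral over caudal had a median of -0.05 over the olfactory genes, 23 of them above 0 and 34 below, and of 0.07 over the vomeronasal genes, 10 above and 8 below. Vmn2r29, the other vomeronasal receptor named below 0, read -0.63, -0.36 and 0.03 in C57 and -0.18, 0.24 and -0.15 in MF1, or -0.18 ± 0.13 over both strains (SE, adjusted p = 0.716). On the C57 arrays 28.7% of vomeronasal type 1, 27.1% of type 2 and 34.0% of olfactory probes lacked a value, and the spread was 1.56 for type 1, 1.74 for type 2 and 1.45 for olfactory probes. On the MF1 arrays the order was another, with 19.5% of type 1, 8.33% of type 2 and 8.97% of olfactory probes without a value and spreads of 0.94 for type 1, 0.46 for type 2 and 0.49 for olfactory probes. These family values are descriptions, with no test between families.

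Of the receptor genes 6 had more than 1 probe, and the probes of a gene could differ widely. Olfr139 had a mean C57 dye effect of -0.80 over 3 pools on one probe, and 1.34 in its single complete C57 pool on the other. In that pool, number 2, rostral over caudal was -0.35 on the first probe and -3.27 on the second. The probes of Vmn2r42 had mean C57 dye effects of 0.15 and -2.39. In MF1 the probes read 0.12 and 0.20 for Olfr139 and 0.10 and 0.23 for Vmn2r42. Vmn2r89 went the other way, with dye effects of -1.45 and -1.77 in C57 and of 1.44 and -1.22 in MF1. The 3 probes of Olfr2 read -0.60, -0.27 and -2.98 in C57 and 2.26, 0.27 and -0.10 in MF1. Of these, -1.45 is from C57 pool 3 alone, -1.22 from MF1 pool 1, -2.98 from C57 pool 1 and 2.26 from MF1 pool 2. The probes of a gene thus do not cover the same pools, and differences between pools enter these values. These genes were taken as examples after their values were seen.

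Genes that mark the sensory neurons themselves were read in part. Of the olfactory neuron markers 4 genes were on the array and 3 in the fit, with a median rostral over caudal ratio of -0.02 and 0 past the adjusted threshold. Gnal, the G protein subunit that olfactory receptors signal through and a gene also used in the striatum, read 0.53 over both strains (adjusted p = 0.449), and Adcy3, the adenylyl cyclase of that pathway, read -0.27 (adjusted p = 0.565). Of the vomeronasal markers 3 of 5 were in the fit, among them the channel gene Trpc2 at 0.06 (adjusted p = 0.893) and Gnao1, abundant in neurons at large, at 0.33 (adjusted p = 0.555). With ratios alone, their levels could not be set against 0. Embryonic cortex markers, by contrast, were read nearly everywhere: 17 of 17 were in the fit, 0 passed for rostral over caudal, and the progenitor factor Lhx2 was below 0 in 6 of 6 pools (-0.50 over both strains, adjusted p = 0.341) while Foxp1 was above 0 in 6 of 6 (0.40, adjusted p = 0.456).

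In the comparison lists the C57 dye effect passed for smaller shares than among the receptors, a difference that was not tested. The share over all features was 9.51%. Of 8 other chemosensory receptors in the fit, 1 passed for the C57 dye effect, with a list median of -0.44. Of their 9, 5 and 9 probes with both arrays in C57 pools 1, 2 and 3, 88.9%, 80% and 88.9% had a dye effect below 0. Tas2r105 and Tas1r3, both taste receptors, had rostral over caudal ratios of -0.31 (adjusted p = 0.597) and 0.45 (adjusted p = 0.655). Of 37 other tissue-restricted genes, 4 passed for the C57 dye effect, with a median of 0.04. Among them Defb29, a defensin, was below 0 for rostral over caudal in 6 of 6 pools (-1.17, adjusted p = 0.481), and Crygf, a lens crystallin, in 5 of 5 (-0.46, adjusted p = 0.483). Of 60 ribosomal protein genes, 4 passed for the C57 dye effect, with a median of 0.19, and Rps4l and Rpl3 had rostral over caudal ratios of -0.56 (adjusted p = 0.484) and 0.22 (adjusted p = 0.580). All of these lists had 0 genes past the adjusted threshold for rostral over caudal, as had all features (0%).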

How the data were processed

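The deposited values were log2 ratios between the 2 dyes of each of 12 arrays, as read from the values. The labels name the dye of each RNA, and no source names the authors' image analysis, background correction or normalization. The SMART system was used to amplify the cDNA, according to the series' design text. Values at the ceiling of 16.61 were set to missing, and each array was centred on its median (medians ran from -0.41 to 0.475). Missing values over all probes ran from 4.72% to 18.4% of an array. Array pairs were combined per pool, the replicate: the difference between orientations divided by 2 gave rostral over caudal, and their mean gave the dye effect. Probes of 1 symbol were averaged, and 11490 of the 14418 features in the fit were named genes. In R 4.3.3, limma 3.58.1 (lmFit and eBayes) fitted a mean for each strain to the pool values with a spread common to both, and p-values were adjusted by Benjamini and Hochberg's method over all features. The fit was run on simulated pools with a smaller spread than the real ones, alike in both strains, and with large changes set in. That run does not test the calls made in C57. Summaries used Python 3.11.15 with pandas 2.3.3. The number of arrays limits the precision.

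The check that both arrays of a pool run by dye, a Spearman correlation below 0 of their deviations from the strain and orientation mean, gave over receptor probes -0.06, -0.09 and 0.01 in the C57 pools and -0.20, -0.09 and -0.12 in the MF1 pools. Over the other named probes it gave -0.12, -0.15 and -0.006 in the C57 pools and -0.24, -0.18 and -0.33 in the MF1 pools. In C57 pool 3 it was thus near 0 in both sets and does not show the orientation. Over receptor probes it was near 0 in C57 pools 1 and 2 and MF1 pool 2 as well. The plain Spearman correlation of the 2 arrays as deposited was above 0 in C57 pools 1, 2 and 3. It was 0.42, 0.12 and 0.28 over receptor probes and 0.25, 0.14 and 0.10 over the other named probes. In the MF1 pools it was 0.04, 0.08 and -0.06 over receptor probes and -0.14, -0.05 and -0.28 over the other named probes. The members, gene lists and tests were chosen with earlier results of these data known. Named receptors were, among those in the fit, the 6 per side of smallest p over both strains, the 4 per side in each strain, the 3 per side for the strain difference and for the dye effect, and the 2 vomeronasal receptors per side, with 2 genes of smallest p from each comparison list. Alternatives covered centring, scaling, ceiling values, gaps, single orientations, all 12 arrays in 1 fit with the pool as a random block, and each pool left out. Dye effects by strain and each strain fitted alone were added after the data were seen.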

Additional observations from a re-analysis of the deposited data

Results flagged for a closer look

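Values far from the others were sought in 36 groups of 4 to 6 values (receptor summaries on the arrays of a strain, and named receptors over their pools), and 4 were found. Chance gives about 1 in 20 groups, and no cause was tested for any of them. Olfr156 read -2.555 for rostral over caudal in C57 pool 2, far below its other 5 pools. Olfr586 read 1.01 in C57 pool 3, where its other 4 pools were all below 0. Olfr9 read 1.75 in C57 pool 2, where its other 4 pools lay between 0.28 and 0.46. The share of receptor values that matched a ratio of small whole numbers was 2.48% on the C57 pool 1 array with rostral RNA in Cy5, against 7.52% to 10.5% on the other 5 C57 arrays.

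The receptors' median dye effect was below 0 in 3 of 3 C57 pools, with a mean of -0.74, and above 0 in 3 of 3 MF1 pools, with a mean of 0.08. This difference between the strains was not tested. The MF1 medians lay near 0 and differed by family. They were 0.11, 0.12 and 0.05 in pools 1, 2 and 3 for olfactory probes and -0.10, -0.10 and -0.06 for vomeronasal type 1 probes. Type 2 probes had 0.0085, 0.219 and -0.018. Over the 77 receptors in the fit the MF1 median was 0.007, with 42 above 0 and 35 below. For 2 receptors the difference in dye effect of C57 minus MF1 passed the test over all features: -4.15 for Olfr149 and -2.55 for Olfr9, both at a limma adjusted p of 0.0494. Each array held 1 strain, so strain and array set cannot be told apart.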

How the results depend on the processing

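No receptor passed an adjusted p of 0.05 for rostral over caudal under any alternative except single orientations, which leave the dye effect in. Values from the alternatives follow, and the cause of each change was not tested unless the alternative removes samples or features. Counts of receptors at the unadjusted p stand here without the share of all features at that threshold. The number of receptors in a fit may differ from that in the fit above and is not given here. These counts alone therefore do not show that an effect grew or faded. With rostral RNA in Cy3 only, C57 gave 188 features and 4 receptors past the adjusted threshold, 53 receptors at an unadjusted p under 0.05 and a median of 0.70; both strains gave 39 and 0.28, MF1 11, and the strain difference 40 and 0.92. Olfr48 turned to -0.51 over both strains, -0.98 in C57 and -0.94 for the strain difference. With rostral RNA in Cy5 only, C57 gave 118 features, 3 receptors, 48 at the unadjusted p and a median of -0.72; both strains gave 27 and -0.33, and the strain difference 25 and -0.86. There Vmn1r10 turned to -0.60 over both strains, -0.41 in C57 and -0.79 in MF1, Vmn2r89 to -0.51, -0.97 in C57 and -0.90 for the strain difference, and Olfr9 to -0.67 and Olfr397 to -0.28 over both strains. In MF1 Olfr29-ps1 turned to -0.076, V1rb10 to -0.66, Olfr149 to 0.63 and Olfr749 to 0.38, and Olfr30 turned to -0.86 for the strain difference.

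The fit of 12 arrays (within-pool correlation 0.2415) called 21 features over both strains and 9 in C57, with 0 receptors among them, and gave 10 receptors in C57 and 4 for the strain difference at the unadjusted p. Without centring, the receptor median was -0.23 over both strains and -0.25 in MF1, 15 receptors had an unadjusted p under 0.05 over both strains, and the dye effect called 147 features and 3 receptors over both strains, 840 features in C57, and 6 features and 1 receptor for the strain difference. With arrays scaled, the dye effect called 70 features and 0 receptors over both strains, 452 and 8 in C57, and 0 and 0 for the strain difference, with 11 receptors at the unadjusted p in MF1 and 5 for rostral over caudal in MF1. With ceiling values kept, the dye effect called 2 receptors over both strains, 2 features in MF1, and 16 features and 0 receptors for the strain difference. Among features complete on 12 arrays, rostral over caudal called 2 features over both strains, and the receptors at the unadjusted p numbered 3 over both strains, 6 in C57, 1 in MF1 and 4 for the strain difference. The dye effect there called 126 features and 1 receptor over both strains, 907 and 14 in C57, and 29 and 1 for the strain difference, with 17, 22, 1 and 17 receptors at the unadjusted p over both strains, in C57, in MF1 and for the difference. With each strain fitted alone, the C57 dye effect called 0 features and 0 receptors, and at the unadjusted p 17 receptors had a dye effect in MF1, 10 rostral over caudal in C57 and 5 in MF1. The gap in missing values in C57 was 18 points against all other probes. The ratio of spreads was 1.58 in C57 and 1.32 in MF1 with a plain SD, and 0.95 in MF1 among complete probes.

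Pool numbers did not pair the strains: correlations between same-numbered pools were -0.14, 0.06 and -0.004. With the number as a replicate block, the dye effect called 0 features and 0 receptors for the strain difference, against 45 and 2. Leaving out 1 pool at a time, the dye effect called 0 to 348 features and 0 to 6 receptors over both strains, 171 to 1021 and 1 to 17 in C57, 0 and 0 in MF1, and 0 to 229 and 0 to 6 for the strain difference. Its receptors at the unadjusted p ran from 14 to 31 over both strains, 24 to 41 in C57, 2 to 6 in MF1 and 18 to 31 for the difference, and its median in MF1 from -0.029 to 0.0198. For rostral over caudal these receptors ran from 5 to 8 over both strains, 6 to 15 in C57, 1 to 3 in MF1 and 3 to 12 for the strain difference.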
